A study of Mus musculus with 6 samples.

Results

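Aurora, Polo and NEK2 kinases with the Aurora B partners Incenp and Birc5 were examined in mouse testes at postnatal day 15. The genes were taken by symbol: every transcript cluster (a set of array features that together read a transcribed region) whose only platform symbol is Aurka, Aurkb, Aurkc, Incenp, Birc5, Plk1, Plk2, Plk3, Plk4 or Nek2. All 10 genes were measured, by 13 of the 21789 tested clusters (10 of 19938 genes), because Aurkc has 4 clusters. Whole testes of 3 control and 3 knockout samples were hybridised to 6 Affymetrix Mouse Gene 1.0 ST arrays. Both groups are pups of the same age, the knockout being of a single gene whose name and values are not reported here. The labels name no strain, further allele or Cre line and do not say which cells carry the deletion or whether a sample is 1 animal or a pool. Hence a p-value here reflects only how far these samples scatter, and that scatter may be technical. The number of arrays limits the precision.

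These kinases drive cells through division. Aurora A (Aurka) acts at centrosomes and spindle poles, while Aurora B (Aurkb) works at centromeres in the chromosomal passenger complex with INCENP, survivin (Birc5) and borealin, and Aurora C (Aurkc) takes that place in germ cells. PLK1 promotes entry into M phase and, in spermatocytes, disassembly of the synaptonemal complex, PLK4 starts centriole duplication, and NEK2 loosens the link between centrosomes. PLK2 and PLK3 are Polo family members that cells induce after growth signals or stress. In the testis at this age, dividing spermatogonia and Sertoli cells near the end of their proliferation lie beside spermatocytes up to pachytene.

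The arrays had medians of 8.075 to 8.1 (log2), and over all rows no pair correlated below 0.995. Samples differed in more than genotype. The 3 measured markers of epididymis, a tissue attached to the testis, averaged 7.17 in control replicate 3 and between 5.813 and 6.003 in the other 5 arrays. The 11 markers of pachytene spermatocytes averaged 8.898 in control replicate 1 but 9.515 in replicate 2 and 9.393 in replicate 3 of the controls. Their averages in knockout replicates 1 to 3 were 8.723, 8.774 and 8.992. The 12 immediate early genes averaged 8.765 in knockout replicate 3 and between 8.321 and 8.478 elsewhere.

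Promoter windows of 5 genes are printed because these genes cover the main patterns: Aurka, Plk1 and Nek2 had lower mean values in the knockout, Plk2 had higher ones, and Aurkc showed no difference beyond its spread. They come from RefSeq (GRCm38.p6), which gave a window for 8 of the 10 genes, and run from 250 bases before to 50 bases after the annotated start, 5′ to 3′ on the gene's strand. The windows are chr2:172370521-172370820 (minus strand) for Aurka, chr7:122159185-122159484 (plus) for Plk1, chr1:191821223-191821522 (plus) for Nek2, chr13:110394794-110395093 (plus) for Plk2 and chr7:6995135-6995434 (plus) for Aurkc. Capitals mark matches to the motifs searched.
Aurka: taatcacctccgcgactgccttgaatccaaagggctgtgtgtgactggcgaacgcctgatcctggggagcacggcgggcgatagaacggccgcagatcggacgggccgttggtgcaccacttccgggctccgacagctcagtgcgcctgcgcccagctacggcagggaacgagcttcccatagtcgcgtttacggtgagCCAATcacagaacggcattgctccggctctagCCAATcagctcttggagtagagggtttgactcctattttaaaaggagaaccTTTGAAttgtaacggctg
Plk1: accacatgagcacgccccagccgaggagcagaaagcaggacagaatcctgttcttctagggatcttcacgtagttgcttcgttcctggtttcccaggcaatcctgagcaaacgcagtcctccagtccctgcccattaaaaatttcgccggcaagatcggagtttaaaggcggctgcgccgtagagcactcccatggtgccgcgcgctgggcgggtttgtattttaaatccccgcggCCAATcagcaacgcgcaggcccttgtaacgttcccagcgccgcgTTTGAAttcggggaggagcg
Nek2: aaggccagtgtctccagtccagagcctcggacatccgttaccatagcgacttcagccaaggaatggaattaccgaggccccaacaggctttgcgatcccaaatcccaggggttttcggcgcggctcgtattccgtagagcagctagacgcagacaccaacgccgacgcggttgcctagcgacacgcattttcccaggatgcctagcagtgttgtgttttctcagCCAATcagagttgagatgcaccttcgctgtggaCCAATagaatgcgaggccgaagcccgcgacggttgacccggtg
Plk2: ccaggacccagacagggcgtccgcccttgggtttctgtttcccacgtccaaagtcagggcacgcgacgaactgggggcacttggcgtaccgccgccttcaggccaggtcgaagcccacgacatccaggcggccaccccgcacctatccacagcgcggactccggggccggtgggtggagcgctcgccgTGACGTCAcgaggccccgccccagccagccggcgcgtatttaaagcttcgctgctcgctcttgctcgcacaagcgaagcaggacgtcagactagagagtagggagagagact
Aurkc: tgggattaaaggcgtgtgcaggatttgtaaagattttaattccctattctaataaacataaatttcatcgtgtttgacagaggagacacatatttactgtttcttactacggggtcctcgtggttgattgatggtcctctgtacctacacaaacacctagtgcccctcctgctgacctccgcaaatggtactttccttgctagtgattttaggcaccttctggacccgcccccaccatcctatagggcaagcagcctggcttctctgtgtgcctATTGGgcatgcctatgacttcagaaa

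The motifs were the CHR element (TTTGAA or TTCGAA), known from promoters of genes that peak late in the cell cycle, the CCAAT box of NF-Y (CCAAT), E2F sites (TTTCCCGC, TTTGGCGC, TTTCGCGC or TTTGCCGC) and the cAMP response element (TGACGTCA), searched on both strands. Only the windows of Aurka and Plk1 held a CHR element, both as TTTGAA on the gene's strand, at bases 33 to 38 and 31 to 36, counted from 1 at the start (negative before it). Over all 32851 windows, 19.2% held one. Aurka had CCAAT boxes at -51 to -47 and -19 to -15, Plk1 at -14 to -10, and Nek2 at -26 to -22 and 8 to 12. Aurkc had a box on the opposite strand, printed as ATTGG, at 25 to 29. These were 4 of 8 windows, against 37.4% of all windows, and 7.52% of all windows held both a CHR element and a CCAAT box, as those of Aurka and Plk1 did. Plk2 held a cAMP response element at -62 to -55, a match found in 1.79% of all windows and in no other of the 8. No match to the E2F letters lay in the 8 windows (2.26% of all windows), and none of the motifs in those of Birc5, Plk3 and Plk4. A match is a description of letters and not a measured binding site.

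The comparison of the genotypes asks whether mRNA of these kinases differs in the knockout testis. Of the 13 clusters 10 had a lower and 3 a higher mean in the knockout, against 47% of all tested clusters with a lower mean. With the brightest cluster of each gene, 7 of the 10 genes had a lower mean. No cluster passed an adjusted p of 0.05 (limma, Benjamini-Hochberg over 21789 clusters), a threshold that 0.0138% of all clusters passed. At an unadjusted p under 0.05 there were 6 of 13, against 10.6% of all clusters: Aurka, Aurkb, Incenp, Birc5 and Nek2 on the lower side (5, against 6.45%) and Plk2 on the higher side (1, against 4.1%). In the same 6 the values of the groups did not overlap, as in 15.3% of all clusters, where 8.6% were lower and 6.73% higher in the knockout. The median difference was -0.05 on the log2 scale over the 13 clusters and -0.13 over the 10 genes with the brightest cluster of each, while that of all tested clusters was 0.0033. Whole testis was measured, so fewer cells of a type and less mRNA per cell cannot be told apart.

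**Figure D1:**
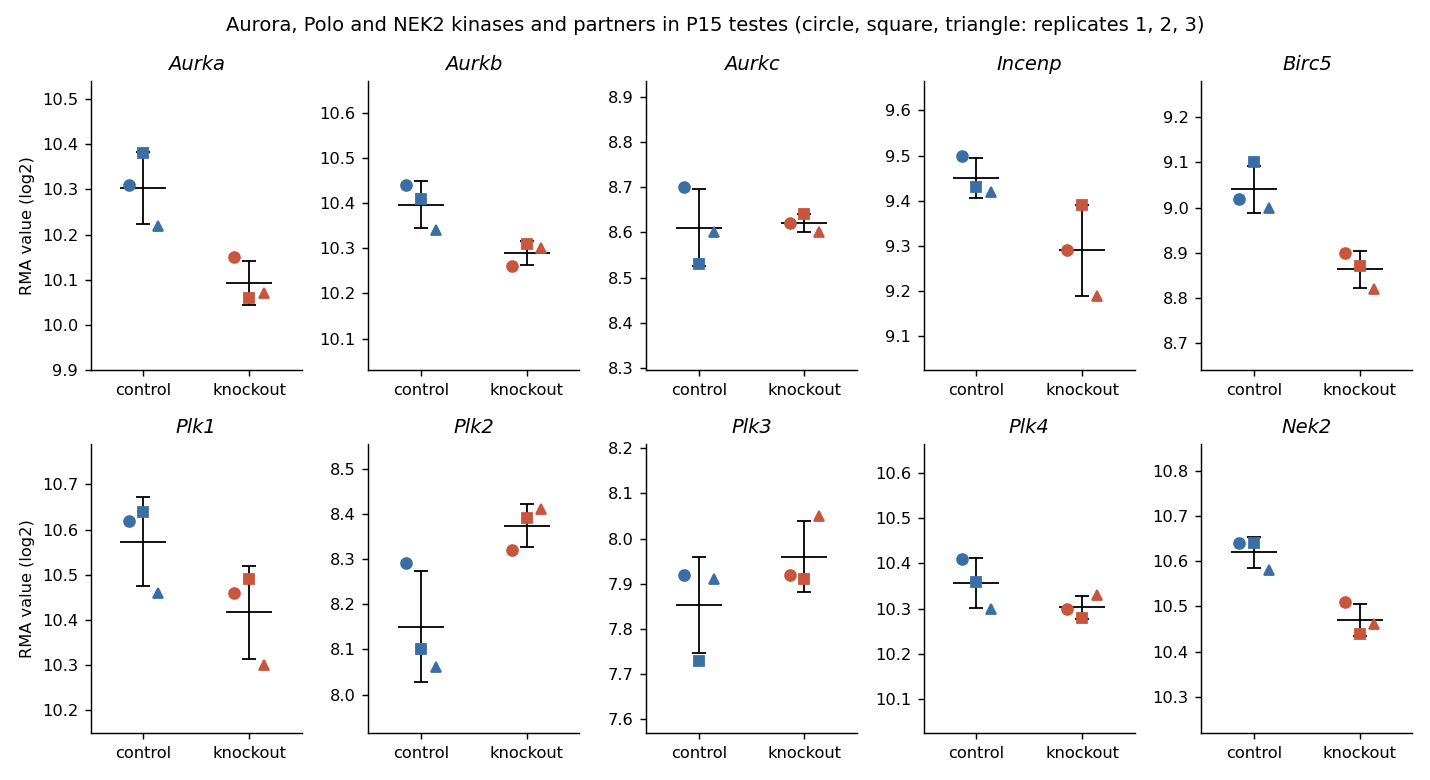
Values (log2, as deposited) of the 10 genes in each array, control in blue and knockout in red, with the replicate number by symbol, the mean as a line and the SD as whiskers (n = 3); Aurkc is shown by its brightest cluster, and every panel spans the same number of log2 units. The knockout values of Aurka, Aurkb, Incenp, Birc5 and Nek2 lie below all control values, and those of Plk2 above.

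Aurka, the spindle pole kinase, had values of 10.31, 10.38 and 10.22 in control replicates 1 to 3 and 10.15, 10.06 and 10.07 in the knockout. Every knockout value lay below the lowest control value, that of replicate 3. The means were 10.30 ± 0.080 (SD, n = 3) and 10.09 ± 0.049, a difference of -0.21 (SE 0.055, fold 0.864, 95% interval -0.34 to -0.08, adjusted p = 0.322 in limma).

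Aurkb, the kinase of the passenger complex, had values of 10.44, 10.41 and 10.34 in control and 10.26, 10.31 and 10.3 in knockout arrays. The groups did not overlap, but the gap between the closest values, control replicate 3 and knockout replicate 2, was small. Its difference was -0.11 (SE 0.044, fold 0.929, adjusted p = 0.462 in limma), with a 95% interval from -0.21 to -0.0024.

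Incenp, the scaffold that binds and activates Aurora B, had values of 9.5, 9.43 and 9.42 in control and 9.29, 9.39 and 9.19 in knockout arrays. Knockout replicate 2 came close to the controls, while replicate 3 was the lowest array. The difference was -0.16 (SE 0.060, fold 0.895, adjusted p = 0.418 in limma), and -0.11 without knockout replicate 3. Birc5, or survivin, which brings the complex to centromeres, had values of 9.02, 9.1 and 9 in control and 8.9, 8.87 and 8.82 in knockout arrays. Here both groups were tight and all knockout values lay below the controls. The difference was -0.18 (SE 0.047, fold 0.885, 95% interval -0.29 to -0.07, adjusted p = 0.336 in limma).

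Borealin (Cdca8), which completes the passenger complex and was named after its values were seen, had values of 10, 10.04 and 9.91 in control and 9.8, 9.87 and 9.9 in knockout arrays. Its groups too did not overlap, but the closest control and knockout values were 9.91 and 9.9. The difference was -0.13 (SE 0.052, adjusted p = 0.452 in limma). Aurkb, Incenp and Birc5, the members of the complex taken by the rule, were chosen with earlier results of these data known. They had differences from -0.18 to -0.11. Their groups did not overlap, as in 8.6% of all clusters on the lower side. Neither these members nor Cdca8 passed the threshold over all clusters.

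Aurkc, the Aurora of germ cells, showed no difference beyond its spread in any of its 4 clusters. These clusters are annotated to the same gene and list shared transcripts, so they are not independent, and signal from a near-identical copy cannot be told apart. In the brightest, cluster 10512680, the control values were 8.7, 8.53 and 8.6 and the knockout values 8.62, 8.64 and 8.6. The knockout values fell inside the control range. The differences of the 4 clusters were 0.01, -0.02, -0.0067 and -0.02, each with a standard error between 0.043 and 0.064 and an adjusted p between 0.928 and 0.974 in limma. The 95% intervals together ran from -0.17 to 0.13. The sign of each of the 4 depended on the arrays or the normalisation used.

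Plk1, the Polo kinase of M phase, had values of 10.62, 10.64 and 10.46 in control and 10.46, 10.49 and 10.3 in knockout arrays. The groups overlapped, because control replicate 3 matched knockout replicate 1 and lay below knockout replicate 2. The difference was -0.16 (SE 0.071, fold 0.897, 95% interval -0.32 to 0.01, adjusted p = 0.494 in limma). Without control replicate 3, the array with the epididymal markers, it was -0.21 with an unadjusted p of 0.0204 (adjusted p = 0.409), and without knockout replicate 3 it was -0.10.

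Plk2, a Polo kinase induced by growth signals and stress, had higher values in the knockout. They were 8.29, 8.1 and 8.06 in control and 8.32, 8.39 and 8.41 in knockout arrays. All knockout values lay above the controls, although control replicate 1 came close to knockout replicate 1. The means were 8.15 ± 0.12 and 8.37 ± 0.047, a difference of 0.22 (SE 0.067, fold 1.17, 95% interval 0.06 to 0.38, adjusted p = 0.370 in limma). Without control replicate 1 it was 0.29 (adjusted p = 0.101), and without knockout replicate 3, the array with the high immediate early genes, it was 0.205 (adjusted p = 0.532).

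Plk3, another inducible Polo kinase, had values of 7.92, 7.73 and 7.91 in control and 7.92, 7.91 and 8.05 in knockout arrays. The groups overlapped, control replicate 2 being the lowest and knockout replicate 3 the highest array. The difference of 0.11 (SE 0.068, adjusted p = 0.630 in limma) was 0.05 without control replicate 2 and 0.06 without knockout replicate 3. Plk4, the centriole kinase, had values of 10.41, 10.36 and 10.3 in control and 10.3, 10.28 and 10.33 in knockout arrays. Its groups overlapped as well, with a difference of -0.05 (SE 0.045, 95% interval -0.16 to 0.05, adjusted p = 0.725 in limma). It was -0.03 without control replicate 1 and -0.08 without control replicate 3.

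Nek2, the centrosome kinase, had values of 10.64, 10.64 and 10.58 in control and 10.51, 10.44 and 10.46 in knockout arrays. Both groups were tight and did not overlap. The means were 10.62 ± 0.035 and 10.47 ± 0.036, a difference of -0.15 (SE 0.043, fold 0.901, 95% interval -0.25 to -0.05, adjusted p = 0.357 in limma).

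**Figure D2:**
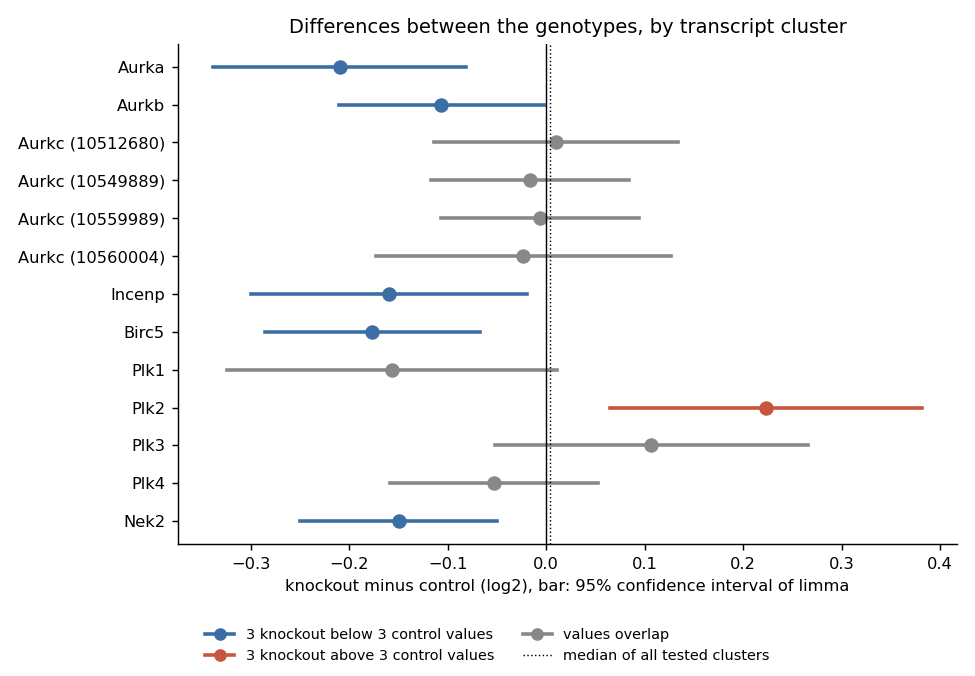
Difference between the genotypes (knockout minus control, log2) for each of the 13 clusters, with the 95% confidence interval of limma; colour shows whether the 3 knockout values lay below, above or among the 3 control values. The intervals of Aurka, Aurkb, Incenp, Birc5 and Nek2 lie below 0, that of Plk2 above 0, and the 4 Aurkc clusters are centred near 0.

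Paralogs were compared within each array in 6 pairs, so that a difference shared by both genes cancels. With 3 arrays against 3 the smallest exact permutation p is 0.1, and no pair could pass. That p is reached only when the groups do not overlap, and how often pairs of other genes reach it was not counted. Relative to Plk1, Plk2 was 0.38 higher in the knockout, from -2.42 ± 0.11 to -2.04 ± 0.13 (exact two-sided permutation p = 0.1, 0.2 after Benjamini-Hochberg over the 6 pairs). Aurkc, read by its brightest cluster, was 0.22 higher relative to Aurka and 0.12 higher relative to Aurkb. Both pairs also had an exact permutation p of 0.1 and groups that did not overlap. In the other 3 pairs the groups overlapped: Aurkb relative to Aurka was 0.10 higher (exact permutation p = 0.3), Plk3 relative to Plk1 0.26 (exact permutation p = 0.2) and Plk4 relative to Plk1 0.10 (exact permutation p = 0.5). The sign of all 6 was kept whichever array was left out, within 0.30 to 0.43 for Plk2 against Plk1. Without control replicate 2, Aurkc was 0.14 higher relative to Aurka and 0.07 higher relative to Aurkb. Without knockout replicate 3, Plk3 was 0.16 and Plk4 0.03 higher relative to Plk1, and without control replicate 2 Plk3 was 0.17 higher.

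With 1 array left out, Aurka, Birc5, Plk2 and Nek2 kept an unadjusted p under 0.05 in every case. How many of all clusters did the same was not counted. Aurkb kept such a p only without control replicate 3, and Incenp only without control replicate 3 or knockout replicate 2. Thus the count of 6 was 7 without control replicate 3 (against 10.9% of all clusters) and 4 without control replicate 1 (10.1%), control replicate 2 (8.46%), knockout replicate 1 (7.22%) or knockout replicate 3 (9.18%). No member passed an adjusted p of 0.05 in any of these fits, and none apart from Aurkc changed sign.

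**Figure D3:**
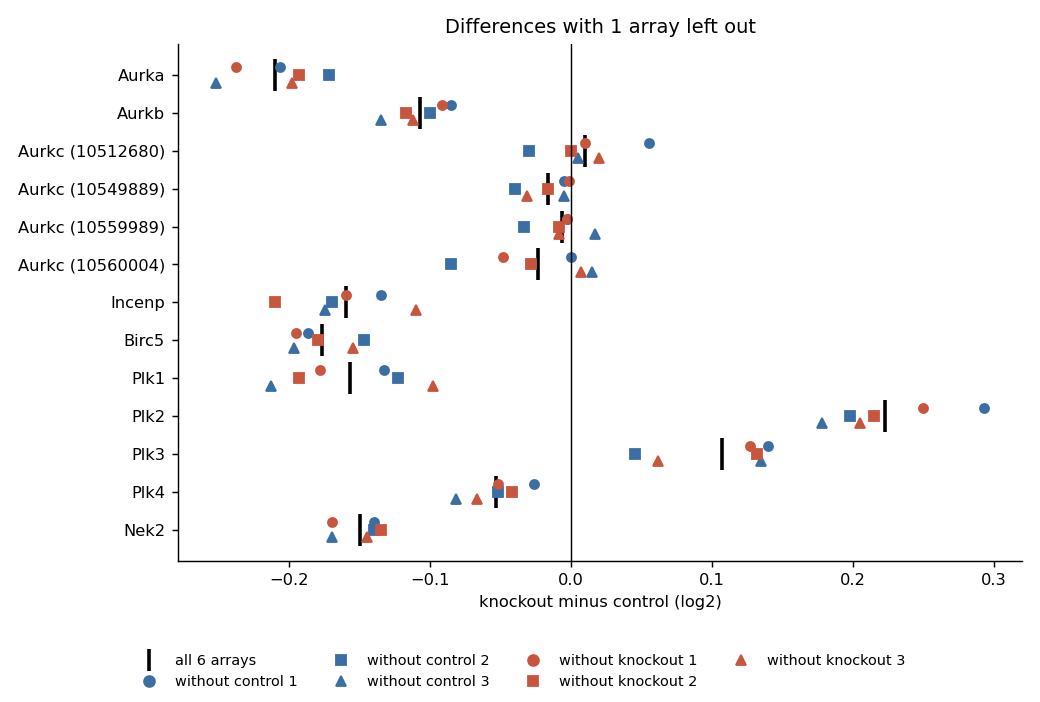
Difference between the genotypes (knockout minus control, log2) for each of the 13 clusters with all 6 arrays (black bar) and with each array left out (blue, a control array; red, a knockout array). Aurka stays between -0.25 and -0.17 and Plk2 between 0.18 and 0.29, while the Aurkc clusters cross 0.

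Other genes around these kinases were taken as lists, which were chosen with earlier results of these data known. No gene in them passed an adjusted p of 0.05 in limma. Of 13 measured activators of Aurora kinases and partners of the passenger complex, 11 had a lower mean in the knockout, and the median difference was -0.09. At an unadjusted p under 0.05, 5 were lower and 0 higher, and in 6 all knockout values lay below the controls, against 6.45% and 8.6% of all clusters. The smallest p-values were those of Kif20a, a kinesin that carries the passenger complex to the central spindle (-0.21, SE 0.041), Haspin, the histone kinase whose mark recruits the complex to centromeres (-0.31, SE 0.071), and Tacc3, an Aurora A substrate on spindle microtubules (-0.12, SE 0.042). Haspin had values of 8, 8.13 and 7.98 in control and 7.79, 7.79 and 7.59 in knockout arrays. Tpx2, the main activator of Aurora A, and the centromere kinase Bub1, both named after their values were seen, differed by -0.04 and 0.07.

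Among 16 partners and substrates of Polo kinases, 12 had a lower and 4 a higher mean in the knockout (median -0.03), and 4 had an unadjusted p under 0.05, all lower (6.45% of all clusters). The smallest p-values belonged to Prc1, which bundles microtubules of the central spindle and docks PLK1 (-0.23, SE 0.052), and to Sass6 (-0.16, SE 0.041) and Stil (-0.19, SE 0.067), which act with PLK4 in building new centrioles. Of the 16 genes only these 3, named for their small p, had all knockout values below the controls, against 8.6% of all clusters. Plk4 itself overlapped. The list of 14 other NEK kinases and NEK2 targets was split, 8 lower and 6 higher in the knockout, around a median of -0.01 that ranged from -0.03 (without control replicate 2) to 0.0092 (without knockout replicate 3). The smallest p-values there were those of the kinetochore protein Ndc80 (-0.16, SE 0.047, groups apart), the rootlet protein gene Crocc (-0.08) and Nek11 (-0.33, SE 0.19, groups overlapping). Ndc80 was the 1 gene of the 14 in the NEK list with an unadjusted p under 0.05, against 6.45% of all clusters on the lower side.

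Of 14 transcription factors that act on G2 and M phase genes, 10 lay below the control mean (median -0.06, and -0.04 without knockout replicate 1). An unadjusted p under 0.05 was reached by 0 of them, against 10.6% of all clusters. Foxm1, an activator of Plk1 and Aurkb transcription, differed by -0.15 (SE 0.064), E2f4 by -0.08 and Rbl2, a repressor of the same genes, by 0.13. Among 13 markers of proliferating cells 11 were lower and 2 higher in the knockout (median -0.07). Their mean lay between 10.9 and 10.97 in control arrays and between 10.86 and 10.88 in knockout arrays. Cyclin B2 (Ccnb2) had the smallest p-value of the proliferation list (-0.16, SE 0.044), followed by the spindle kinesin Kif11 (-0.12) and the anaphase activator Cdc20 (-0.12). Of the 13 only Ccnb2 had an unadjusted p under 0.05, against 6.45% of all clusters on the lower side. In 4 of the 13 all knockout values lay below the controls, against 8.6% of all clusters. The part of the number of dividing cells in the values of the mitotic kinases was not tested.

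Immediate early genes, the class to which Plk2 and Plk3 belong by their known induction, were mostly higher in the knockout, 10 of 12 by their means, and the median difference was 0.17. At an unadjusted p under 0.05, 3 were higher (4.1% of all clusters): Egr2 (0.42, SE 0.062), Ier3 (0.30, SE 0.11) and Fos (0.23, SE 0.085), of which Egr2 had an adjusted p of 0.235 in limma. Egr2 had values of 7.69, 7.78 and 7.83 in control and 8.15, 8.12 and 8.29 in knockout arrays. Knockout replicate 3 stood apart in this list, with a mean 0.391 above that of the control arrays against 0.104 and 0.098 in knockout replicates 1 and 2. Without it the median was 0.11. Without knockout replicate 3 the difference was 0.205 in place of 0.22 for Plk2 and 0.06 in place of 0.11 for Plk3. The part of tissue handling in the values of Plk2 and Plk3 was not tested.

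**Figure D4:**
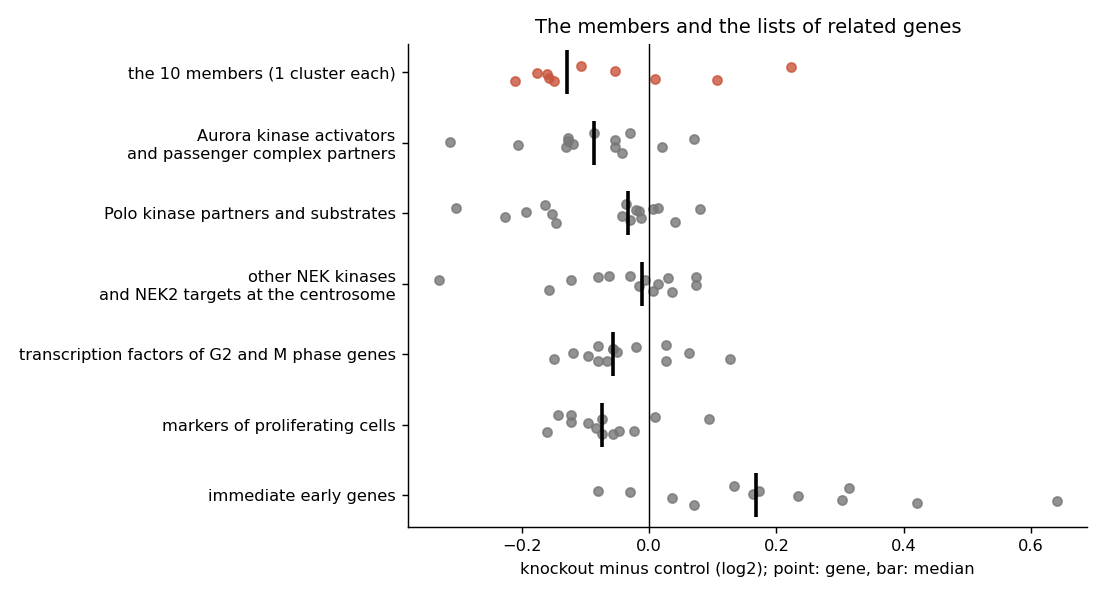
Difference between the genotypes (knockout minus control, log2) of each gene in the 10 members (red) and in 6 lists of related genes (grey), with the median as a bar. Medians are -0.13 for the members, -0.09 for the Aurora partners, -0.03 for the Polo partners, -0.01 for the NEK list, -0.06 for the transcription factors, -0.07 for proliferation markers and 0.17 for immediate early genes.

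Markers of germ cells and somatic cells were read from the same arrays, and none passed an adjusted p of 0.05 in limma. Of 9 spermatogonial markers 8 lay below the control mean (median -0.11), 4 of them at an unadjusted p under 0.05 (6.45% of all clusters). The other 1 of 9, Gfra1 of stem spermatogonia, named after its values were seen, was 0.39 higher. It had the smallest unadjusted p of this list (0.00032 in limma) and groups that did not overlap. On that side 4.1% of all clusters had an unadjusted p under 0.05. The spermatogonial mean was 10.15 to 10.26 in control and 10.12 to 10.13 in knockout arrays. Of the 11 pachytene markers 10 lay below (median -0.64), with 7 at an unadjusted p under 0.05 (6.45% of all clusters), and their mean ran from 8.898 to 9.515 in control and from 8.723 to 8.992 in knockout arrays. Control replicate 1 had the lowest pachytene mean of the controls and the highest value of all 6 arrays in Aurkb, Incenp and Plk4, while control replicate 2 had the highest pachytene mean and the highest value in Aurka, Birc5 and Plk1. In Nek2 these arrays shared the highest value. Control replicate 2 also had the lowest value in Plk3 and in every Aurkc cluster, in 1 of them shared with knockout replicate 1. The 7 leptotene to zygotene markers, 5 lower and 2 higher, had a median of -0.01, and their group means overlapped. That median was -0.10 without knockout replicate 3 and 0.01 without knockout replicate 2. Of the 7, 1 was lower at an unadjusted p under 0.05 (6.45% of all clusters). In 2 all knockout values lay below the controls (8.6% of all clusters).

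Markers of Sertoli cells, macrophages and Leydig cells were mostly higher in the knockout. Of 9 Sertoli markers 7 lay above the control mean (median 0.07, mean 11.23 to 11.28 in control and 11.3 to 11.36 in knockout), and so did 7 of 7 macrophage markers (median 0.15, mean 9.154 to 9.306 and 9.341 to 9.391) and 4 of 4 Leydig markers (median 0.38, mean 9.502 to 9.922 and 9.965 to 10.2). The Leydig median was 0.22 without knockout replicate 3 and 0.25 without control replicate 3, and the Sertoli median 0.03 without control replicate 2. Of the remaining lists, those of spermatids (median 0.0033 over 7 genes), peritubular myoid cells (-0.02 over 4, 3 of them lower) and endothelial cells (-0.02 over 4, 3 of them lower) had means that overlapped between the groups. The sign of each of these 3 medians depended on the array left out. The erythrocyte marker measured, Alas2, was 0.28 higher, and 0.16 without control replicate 1. The 3 epididymal markers had a median of -0.36, and 0.04 without control replicate 3. The part of cell composition in the members' values was not tested.

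**Figure D5:**
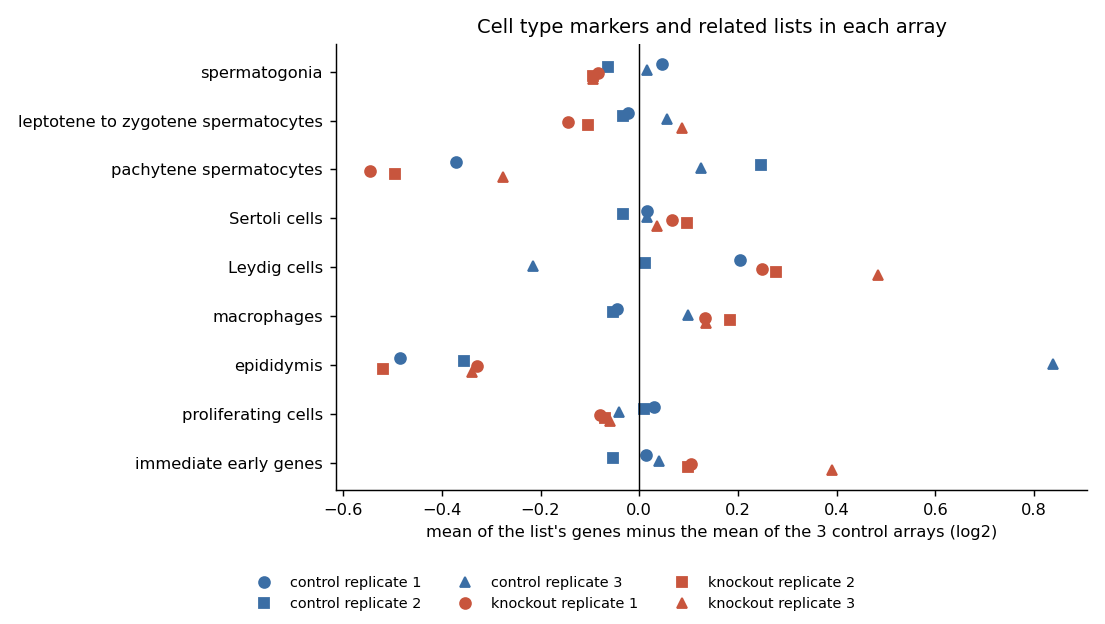
Mean log2 value of each marker list in every array, relative to the mean of the 3 control arrays (control in blue, knockout in red, replicate number by symbol). The epididymal markers of control replicate 3 lie at 0.839, the immediate early genes of knockout replicate 3 at 0.391, and the pachytene markers of control replicate 1 at -0.371.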

How the data were processed

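The deposited table holds log2 values for 35556 transcript clusters in 6 arrays. Per the submitters' processing notes, the authors made them with RMA in Affymetrix Expression Console, whose background correction and quantile normalisation precede a summary per cluster; the version and genome build are not stated in these notes. RMA equalises the distributions of the arrays and so hides any shift common to most transcripts. Clusters were named through the platform annotation, and the 21789 with a single symbol were tested. Knockout was compared with control (3 arrays each, no covariates) with limma 3.58.1 under R 4.3.3 (functions lmFit and eBayes; 4 residual and 3.24 prior degrees of freedom) and Benjamini-Hochberg adjustment over all tested clusters, at 0.05; the procedure was tested on simulated data. List genes with several clusters were represented by the brightest. The rule named all members. From each of the 6 lists of related genes it named any gene past the threshold or else the 3 with the smallest p. Marker lists are given by counts and medians, apart from Gfra1, named after its values were seen, and Alas2, the only erythrocyte marker measured. The members and lists were chosen with earlier results of these data known. The targeted gene is not reported here. No array copied another (at most 4.12% identical values).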

Additional observations from a re-analysis of the deposited data

How the results depend on the processing

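Each alternative was run on all members. The count of 6 member clusters with an unadjusted p under 0.05 was 3 at 0.01, and between 5 and 7 with all rows tested, dim clusters left out, an intensity trend and robust prior, arrays centred on their medians, quantile normalisation over the tested clusters, or array weights. The share of all tested clusters under 0.05 in these processing settings was 8.49% to 13.3%. With 1 array left out the member count ranged from 4 to 7, against 7.22% to 10.9% of all clusters. The median difference of the 13 clusters, -0.053, was -0.033 with arrays centred on their medians, -0.027, -0.085 and -0.082 when the control array numbered 1, 2 or 3 was left out, and between -0.067 and -0.042 in the other settings. No member passed an adjusted p of 0.05 in any setting, the lowest being 0.101 for Plk2 without control replicate 1. With every cluster of a gene counted, the median of the Aurora partners was -0.053 in place of -0.087. Aurka, Birc5, Plk2 and Nek2 had an unadjusted p under 0.05 in all 13 settings. These settings reuse the same arrays, and how many of all clusters did the same was not counted. Replicate numbers are shared between the groups. Deviations of same-numbered arrays correlated at 0.17, -0.054 and 0.17, and those of differently numbered arrays at -0.23 to 0.084. With 3 same-numbered pairs this cannot decide whether the numbers pair the samples. With the replicate block the count was again 6, with Plk1 in (unadjusted p 0.0142) and Aurkb out, and 0 passed an adjusted p of 0.05. With standard errors of 0.043 to 0.071 over 3 arrays per group, the 95% intervals of Plk1, Plk3, Plk4 and the Aurkc clusters hold differences of either sign.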
